A study of Mus musculus with 6 samples.

Results

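The genes described here encode the matrix metalloproteases (Mmp), their tissue inhibitors (Timp), the ADAMTS proteases and the ADAMTS-like proteins (Adamtsl), measured in mouse embryonic fibroblasts with and without the R206H allele of Acvr1. Members were taken by gene symbol from the names in the deposited expression table, with earlier results of these data known. The procollagen-processing genes Adamts2, Adamts3 and Adamts14 were left out. The choice gave 48 of 49315 genes listed, made up of 23 Mmp, 4 Timp, 16 Adamts and 5 Adamtsl genes. Acvr1 encodes a receptor for bone morphogenetic proteins, and R206H is the classical allele of fibrodysplasia ossificans progressiva, in which bone forms in soft tissue. The R206H group consisted of 3 libraries of Acvr1R206H/+ fibroblasts, with 1 mutant allele, and the wild-type group of 3 libraries of Acvr1+/+ fibroblasts. Cells of both genotypes came from E13.5 embryos and were cultured with serum, and total RNA was taken at passage 0, on day 2 in culture, depleted of ribosomal RNA and sequenced. The design text calls the libraries biological replicates. The sources used here give neither strain, embryo sex nor litter, nor whether embryos were pooled. The comparison asks which of these transcripts differ with the mutation.

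Matrix metalloproteases are zinc-dependent enzymes that cut collagens and other matrix proteins outside the cell, and most are made as inactive precursors. Some are anchored in the cell membrane, where Mmp14 activates the precursor of Mmp2 with Timp2 as an adaptor. TIMP proteins bind the active enzymes and block them. ADAMTS proteases are secreted and carry thrombospondin repeats, and several cut the large proteoglycans aggrecan and versican, while ADAMTS-like proteins lack the protease domain and associate with fibrillin microfibrils. In developing limbs and skulls these enzymes take part in the removal of cartilage, the growth of bone and the remodelling of connective tissue.

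Values are TPM, transcripts per 1000000, which are scaled by gene length, so that levels of different genes can be set side by side. A gene was tested if 3 or more of the 6 libraries had a TPM of at least 1. The test was made with limma, a linear model fitted across all genes, on log2(TPM + 1), and p-values were adjusted over all 14818 genes tested with the Benjamini-Hochberg method at a threshold of 0.05. Differences are R206H minus wild type on the log2(TPM + 1) scale, ratios are of mean TPM, and every SD has n = 3. The log2 scale with a pseudocount understates the difference of weakly expressed genes. Estimated depth, in units of 1000000 assigned reads, was 17.8 to 21.7 in R206H libraries and 17.5 to 24.6 in wild-type libraries. The 10 fibroblast markers, all above the level for testing, summed to 8912 to 11425 TPM in R206H libraries and 5634 to 7419 TPM in wild-type libraries. Most abundant were Col1a1, at 3975 to 5722 against 1501 to 3212 TPM, and Vim, at 3025 to 3223 against 2812 to 3485 TPM, which overlap. Of the 10, 7 were higher at an unadjusted p under 0.05 and 0 lower, where 14.4% of all genes tested were higher. None of them passed the adjusted threshold. On the first principal component, with 40.8% of the variance, R206H libraries scored -39.5 to -7.24 and wild-type libraries 18.0 to 29.1. R206H library 3 had the lowest score there. On the second, with 19.3% of the variance, wild-type library 1 had a score of 34.1, where the other 5 libraries had -16.3 to 4.84. Values without wild-type library 1 are given beside the main results it moved. Epithelial markers summed to 196 to 399 TPM in R206H libraries against 543 to 636 TPM in wild-type libraries. Of 9 tested, 9 were lower at an unadjusted p under 0.05, where 11.7% of all genes tested were, with a median difference of -1.55. Cldn3 and Epcam passed the adjusted threshold (limma adjusted p = 0.0272 and 0.0476). Epcam reached the level for testing only through its wild-type libraries, so its direction came with the filter. Krt19, the most abundant, had overlapping values. Mitochondrially encoded genes took 3.43% to 3.85% against 4.16% to 4.57% of TPM, and the part of either difference in the results below was not tested. In bulk RNA, fewer cells of a type and less RNA per cell cannot be told apart.

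The 7 sequences shown first belong to a run of Mmp genes on mouse chromosome 9 that holds Mmp13, 1 of the 2 members that passed the test. All 10 Mmp genes of chromosome 9 lie within 427 kb, in the order Mmp13, Mmp12, Mmp1b, Mmp3, Mmp1a, Mmp10, Mmp8, Mmp27, Mmp20 and Mmp7. AP-1, the dimer of Fos and Jun proteins, is a known activator of several of these genes, and its consensus TGAGTCA, which on the other strand of the same DNA reads TGACTCA, was searched on both strands in the 250 bases before each RefSeq start. Of 33 members found in the promoter set used, 7 held it. These were 7 of the 10 members of the run and 0 of the 23 members searched elsewhere. Members absent from that set, among them Mmp2, Mmp9 and Adamts5, were not searched. Counted by promoter, 7 of the 36 of these members held it. Over all 32851 promoters listed, 4.46% held it. Each line gives the 100 bases before the start in GRCm38.p6, 5′ to 3′ on the strand of the gene, with the AP-1 letters in capitals.
Mmp13 (chr9:7272414-7272513, plus strand): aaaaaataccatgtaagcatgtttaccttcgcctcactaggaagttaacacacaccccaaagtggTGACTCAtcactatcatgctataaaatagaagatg
Mmp12, at the RefSeq start that held a match (chr9:7347274-7347373, plus strand): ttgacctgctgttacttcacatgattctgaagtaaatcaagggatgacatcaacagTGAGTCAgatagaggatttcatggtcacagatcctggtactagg
Mmp1b (chr9:7388027-7388126, minus strand): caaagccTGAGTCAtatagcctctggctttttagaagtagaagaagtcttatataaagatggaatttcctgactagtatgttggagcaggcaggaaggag
Mmp3 (chr9:7445722-7445821, plus strand): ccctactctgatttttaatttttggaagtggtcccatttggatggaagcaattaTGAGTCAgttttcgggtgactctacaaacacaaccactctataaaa
Mmp1a (chr9:7464041-7464140, plus strand): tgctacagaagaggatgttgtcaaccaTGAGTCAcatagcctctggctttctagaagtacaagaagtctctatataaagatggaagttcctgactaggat
Mmp10 (chr9:7502242-7502341, plus strand): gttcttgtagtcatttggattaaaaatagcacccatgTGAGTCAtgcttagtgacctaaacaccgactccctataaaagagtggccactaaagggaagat
Mmp7 (chr9:7691990-7692089, plus strand): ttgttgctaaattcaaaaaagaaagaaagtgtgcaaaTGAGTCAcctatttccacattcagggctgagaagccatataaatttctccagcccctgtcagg

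The first base of the match lay 35 bases before the start in Mmp13, 46 in Mmp3, 63 in Mmp10 and 63 in Mmp7. In Mmp12, Mmp1a and Mmp1b the distances were 44, 73 and 93 bases. The Runx consensus AACCACA, which on the other strand of the same DNA reads TGTGGTT and does not overlap the AP-1 match here, was found in 3 of the 33 members, Mmp13, Mmp27 and Mmp7, against 4.40% of all promoters, and in Mmp13 its first base lay at position -119 from the start, outside the bases shown. In Mmp7 the Runx match lay before another RefSeq start than the AP-1 match, with its first base at position -46. Such matches describe the sequence only.

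Of the 48 members, 30 reached the level for testing and 18 did not. Among the 30, 2 fell in R206H fibroblasts, Mmp13 and Adamtsl5, none rose, and 28 did not pass the adjusted threshold. Over all genes tested, 2.04% passed in either direction, 1.26% higher and 0.79% lower. At an unadjusted p under 0.05, 12 of the 30 were higher and 4 lower, where 26.1% of all genes tested were past that p, 14.4% higher and 11.7% lower. Adamts8, 1 of the 4 lower and of the 5 lower ones without overlap given next, reached the level for testing only through its wild-type libraries, so its direction came with the filter. The genotypes did not overlap in 18 of the 30, 13 with higher and 5 with lower R206H values, against 32.9% of all genes tested, 17.9% higher and 15.0% lower. The median difference of the 30 was 0.25, with 22 positive and 8 negative, beside a median of 0.02 over all genes tested. The 12 higher ones were Mmp, Adamts and Adamtsl genes, and none was a Timp gene.

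**Figure D1:**
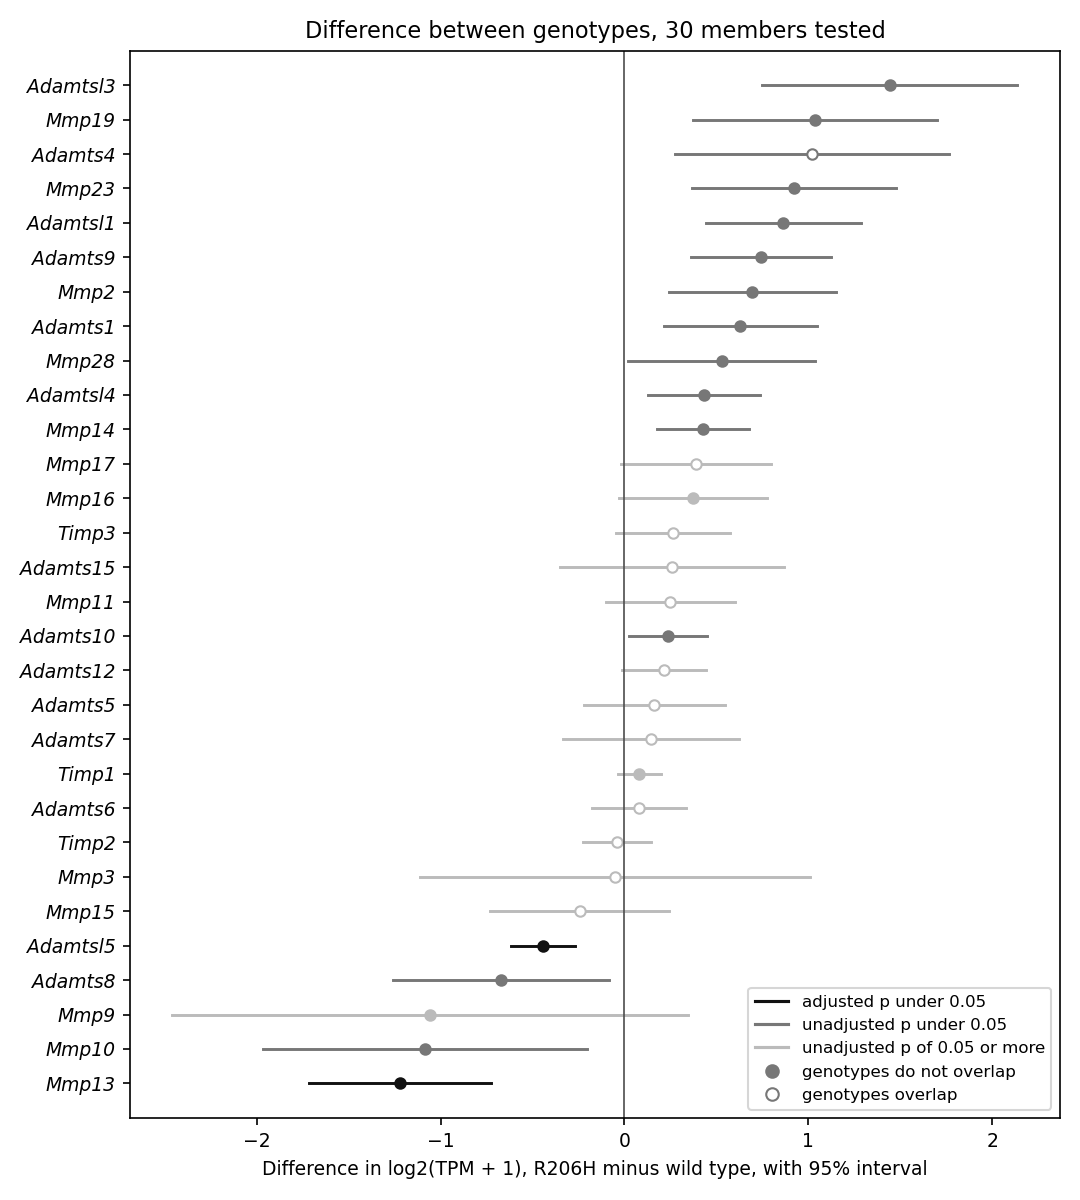
Difference in log2(TPM + 1), R206H minus wild type, for the 30 members tested, with bars for the 95% interval from limma and filled points where the genotypes do not overlap (n = 3 each). The intervals of Mmp13 at -1.22 and Adamtsl5 at -0.44 are black because these passed the adjusted threshold, and Adamtsl3 has the highest value at 1.44.

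Mmp13 encodes a collagenase that cuts fibrillar collagen and is known from hypertrophic cartilage and bone-forming cells (ENSMUSG00000050578, chromosome 9, 7272514 to 7283331, GRCm38, plus strand). It stood at 7.68, 14.7 and 12.5 TPM in R206H libraries 1, 2 and 3, against 25.3, 29.5 and 28.1 TPM in wild-type libraries 1, 2 and 3. Every R206H library lay below every wild-type library, and R206H library 1 was the lowest. The means were 11.6 ± 3.59 TPM in R206H and 27.6 ± 2.13 TPM in wild type, a ratio of 0.421 (log2 difference -1.22, SE 0.21, limma adjusted p = 0.0476). Osteoblast markers differed between the same libraries: the 7 listed summed to 9.80, 25.9 and 15.8 TPM in R206H against 33.9, 95.3 and 81.0 TPM in wild type. Most of the wild-type sum was Ibsp, at 21.5, 69.9 and 59.0 TPM, against 0.331, 14.0 and 2.47 TPM in R206H. Of 6 osteoblast markers tested, 5 were lower at an unadjusted p under 0.05, where 11.7% of all genes tested were. None of the 6 passed the adjusted threshold. Bglap and Ifitm5, among the 5 lower ones, reached the level for testing only through their wild-type libraries, so their direction came with the filter. The remaining marker tested was Sp7, at 6.35, 5.92 and 7.02 TPM in R206H against 1.82, 7.99 and 5.92 TPM in wild type. Its values overlapped, with a difference of 0.41. Chondrocyte markers summed to 249.8 to 367 TPM in R206H libraries and 162 to 371 TPM in wild-type libraries, which overlap, and most of the sum was Col2a1, at 184 to 291 TPM in R206H and 124 to 267 TPM in wild type. Of 9 chondrocyte markers tested, 3 were lower at an unadjusted p under 0.05 (Matn1, Cnmd and Col11a2, differences -2.26, -1.81 and -1.54) and 1 was higher (Col10a1, a marker of hypertrophic cartilage, 1.32), none past the adjusted threshold, and their median was -0.46. The part of either cell type in the level of Mmp13 was not tested. Without R206H library 1 Mmp13 passed as well (limma adjusted p = 0.0216), and without any other library in turn it did not, at adjusted p = 0.0569 without wild-type library 1 and 0.0962 to 0.166 without the others.

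The other collagenases were close to absent. Mmp8, known from neutrophils, had at most 0.692 TPM in R206H libraries and 0.133 TPM in wild-type libraries. Mmp1a and Mmp1b, the mouse counterparts of interstitial collagenase, had at most 0.0869 and 0.243 TPM in R206H and 0 and 0.585 TPM in wild type. The 7 neutrophil markers together summed to 0.451 to 1.63 TPM in R206H libraries and 0.195 to 2.31 TPM in wild-type libraries. Mmp1b shares exon bases with Mmp12 on the opposite strand, and no strand setting is given in the sources used here, so their reads cannot be told apart with certainty.

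Neighbours of Mmp13 in the run had other patterns. Mmp10 encodes a stromelysin, an enzyme that cuts proteoglycans and activates other metalloproteases, and stood at 5.46, 2.92 and 3.88 TPM in R206H libraries 1, 2 and 3, against 17.7, 8.15 and 5.88 TPM in wild-type libraries 1, 2 and 3. All R206H values lay below all wild-type values, by a narrow margin between R206H library 1 and wild-type library 3, and wild-type library 1 was the highest. The difference of -1.08 (SE 0.373) did not pass (limma adjusted p = 0.132), and the ratio of 0.386 became 0.583 without wild-type library 1. Mmp3, the other stromelysin, was the most abundant gene of the run, at 39.5, 50.8 and 96.8 TPM in R206H libraries 1, 2 and 3 against 106, 58.9 and 34.6 TPM in wild-type libraries 1, 2 and 3. Its R206H values lay within the wild-type range, with a difference of -0.05 and a 95% interval of -1.11 to 1.01 (limma adjusted p = 0.954), and the difference turned positive without R206H library 1, R206H library 2 or wild-type library 1, at 0.22, 0.042 and 0.35. Mmp12, the elastase known from macrophages, had 0.551 to 1.53 TPM in R206H libraries and 0.244 to 1.08 TPM in wild-type libraries, and was not tested. The 10 macrophage markers summed to 56.4 to 137 TPM in R206H and 67.7 to 104 TPM in wild type, which overlap. Mmp27 had at most 0.192 TPM in any library, and Mmp7, the epithelial matrilysin, and Mmp20, the tooth enamel protease, were listed at 0 in all 6. So 3 of the 10 genes of the run, Mmp3, Mmp13 and Mmp10, accounted for nearly all of its transcripts, and each of these 3 held the AP-1 letters shown above, as did Mmp12, Mmp1a, Mmp1b and Mmp7 at low levels or at 0.

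**Figure D2:**
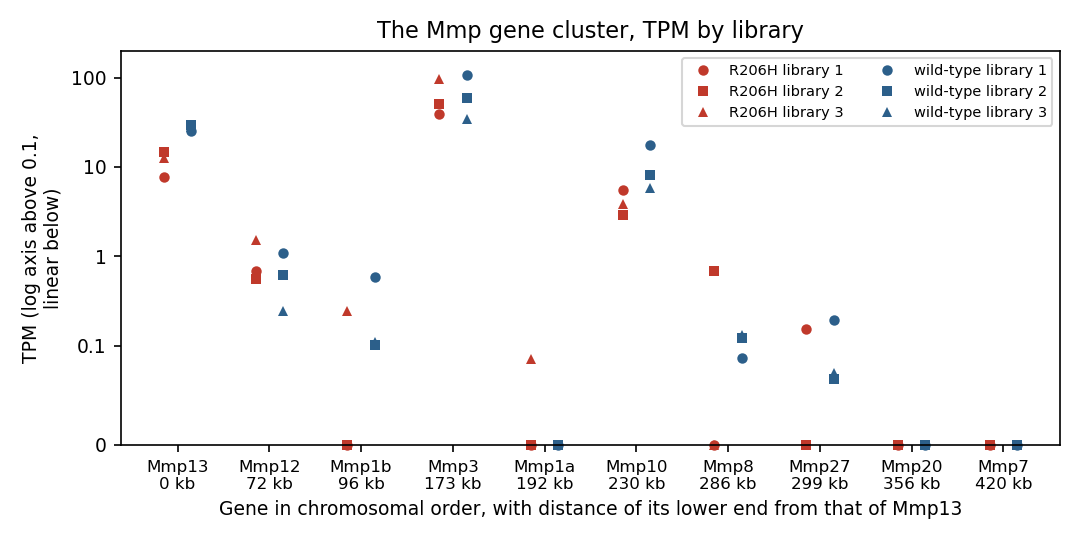
TPM of the 10 Mmp genes of chromosome 9 in each library (axis logarithmic above 0.1 and linear below), in chromosomal order, with the distance in kb from Mmp13. R206H libraries lie left of wild-type libraries for each gene, with values below the wild type for Mmp13 and Mmp10, overlapping values for Mmp3, and values at or near 0 for most others.

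Among the gelatinases, which cut denatured collagen and basement membrane collagen, Mmp2 was abundant and Mmp9 was not. Mmp2 stood at 298, 304 and 340 TPM in R206H libraries 1, 2 and 3, against 271, 166 and 161 TPM in wild-type libraries 1, 2 and 3. The genotypes did not overlap, but wild-type library 1 lay close to the R206H libraries and far from the other wild-type libraries. The means were 314 ± 22.8 TPM in R206H and 199 ± 62 TPM in wild type, a difference of 0.70 (SE 0.192) that did not pass (limma adjusted p = 0.0873). Without wild-type library 1 the ratio was 1.92 instead of 1.58 and the difference passed (limma adjusted p = 0.0184). Leaving out any other library in turn gave no call for Mmp2, and without R206H library 3 the ratio was 1.51. Mmp9 stood at 3.19, 2.67 and 2.44 TPM in R206H libraries 1, 2 and 3, against 21.6, 3.93 and 3.27 TPM in wild-type libraries 1, 2 and 3. The high wild-type mean of 9.61 ± 10.4 TPM rested on wild-type library 1, and the ratio of 0.288 became 0.768 without it (difference -1.06, SE 0.594, limma adjusted p = 0.307). Endothelial markers were also highest in wild-type library 1, at a sum of 30.5 TPM against 8.19 to 15.8 TPM in the other 5 libraries, while the 7 osteoclast markers summed to 22.0 to 24.2 TPM in R206H libraries and 26.5 to 32.9 TPM in wild-type libraries. Most of the osteoclast sum was Itgb3, which other cells also express, at 18.7 to 22.1 TPM in R206H and 23.5 to 27.8 TPM in wild type, and Acp5 had 1.76 to 2.78 TPM against 1.504 to 3.65 TPM. Of the other osteoclast markers, Dcstamp was at 0 in all libraries, and Calcr and Ocstamp had at most 0.108 and 0.116 TPM. Atp6v0d2 had 0.063 to 0.232 TPM in R206H libraries and 0.355 to 0.546 TPM in wild-type libraries. Oscar had 0.114 to 0.476 TPM in R206H and 0.560 to 0.689 TPM in wild type. Both were lower in R206H without overlap, at levels too low to be tested. The part of either cell type in the level of Mmp9 was not tested.

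The membrane-anchored enzymes were led by Mmp14, a collagenase at the cell surface and the activator of Mmp2 (ENSMUSG00000000957, chromosome 14, 54431612 to 54445364, GRCm38). It had the highest level of any metalloprotease here, at 491, 533 and 603 TPM in R206H libraries 1, 2 and 3 against 447, 410 and 355 TPM in wild-type libraries 1, 2 and 3. The genotypes did not overlap, and the difference of 0.43 (SE 0.106) did not pass with limma on log2(TPM + 1) (adjusted p = 0.0741). Mmp23, an enzyme anchored by its amino-terminal end, stood at 28.1, 30.9 and 37.4 TPM in R206H libraries 1, 2 and 3, against 24.5, 14.2 and 12.6 TPM in wild-type libraries 1, 2 and 3. Again all R206H values lay above all wild-type values, with wild-type library 1 nearest (difference 0.92, SE 0.235, limma adjusted p = 0.077, and 0.0351 without that library, where the ratio was 2.40 instead of 1.88). Leaving out any other library in turn gave no call for Mmp23, and without R206H library 3 the ratio was 1.73. Mmp16, a further transmembrane enzyme, had 6.85 to 7.73 TPM in R206H libraries and 3.99 to 6.55 TPM in wild-type libraries. Mmp17, which is held in the membrane by a lipid anchor, had 5.02 to 7.39 TPM in R206H and 4.08 to 5.48 TPM in wild type, and Mmp15 had 4.43 to 6.30 TPM against 5.07 to 8.76 TPM. Their differences were 0.37, 0.39 and -0.24, and none passed (limma adjusted p = 0.223, 0.209 and 0.498). The ratio of Mmp15 was 0.808, and 0.966 without wild-type library 1. Mmp24 and Mmp25 stayed at or under 0.684 TPM in all libraries and were not tested.

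Of the remaining secreted metalloproteases, Mmp19, which cuts basement membrane and other matrix proteins, stood at 21.4, 26.7 and 31.8 TPM in R206H libraries 1, 2 and 3, against 19.4, 11.2 and 8.48 TPM in wild-type libraries 1, 2 and 3. The genotypes did not overlap, and wild-type library 1 lay just below R206H library 1 (difference 1.04, SE 0.281, limma adjusted p = 0.0847, and 0.0431 without wild-type library 1, with the ratio at 2.71 instead of 2.05). The ratio was 1.85 without R206H library 3, and leaving out any library but wild-type library 1 gave no call for Mmp19. Its exons overlap those of Tmem198b on the opposite strand, which had 33.0 to 41.5 TPM in R206H libraries and 22.3 to 30.1 TPM in wild-type libraries, and the limit given for Mmp1b holds for this and the other overlaps named below. Mmp11, an enzyme activated by furin and known from stroma around tumours, stood at 59.2, 65.0 and 68.4 TPM in R206H libraries 1, 2 and 3, against 68.7, 45.5 and 49.6 TPM in wild-type libraries 1, 2 and 3. Wild-type library 1 was the highest of the 6, so the genotypes overlapped (difference 0.25, 95% interval -0.10 to 0.60, limma adjusted p = 0.335). Without that library the difference of Mmp11 was 0.42 and the ratio 1.35 instead of 1.18 (limma adjusted p = 0.0592). Exons of Mmp11 overlap those of Chchd10 on the opposite strand, at 11.6 to 35.3 TPM in R206H libraries and 37.8 to 100.5 TPM in wild-type libraries. Mmp28, also activated by furin, had 3.93, 5.96 and 3.99 TPM in R206H libraries 1, 2 and 3 and 3.28, 2.06 and 3.36 TPM in wild-type libraries 1, 2 and 3, without overlap (difference 0.53, SE 0.215, limma adjusted p = 0.179). It overlaps 1700020L24Rik, at 4.20 to 6.19 TPM in R206H and 1.97 to 2.76 TPM in wild type. Mmp21 had at most 0.066 TPM in R206H libraries and was listed at 0 in wild-type libraries.

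**Figure D3:**
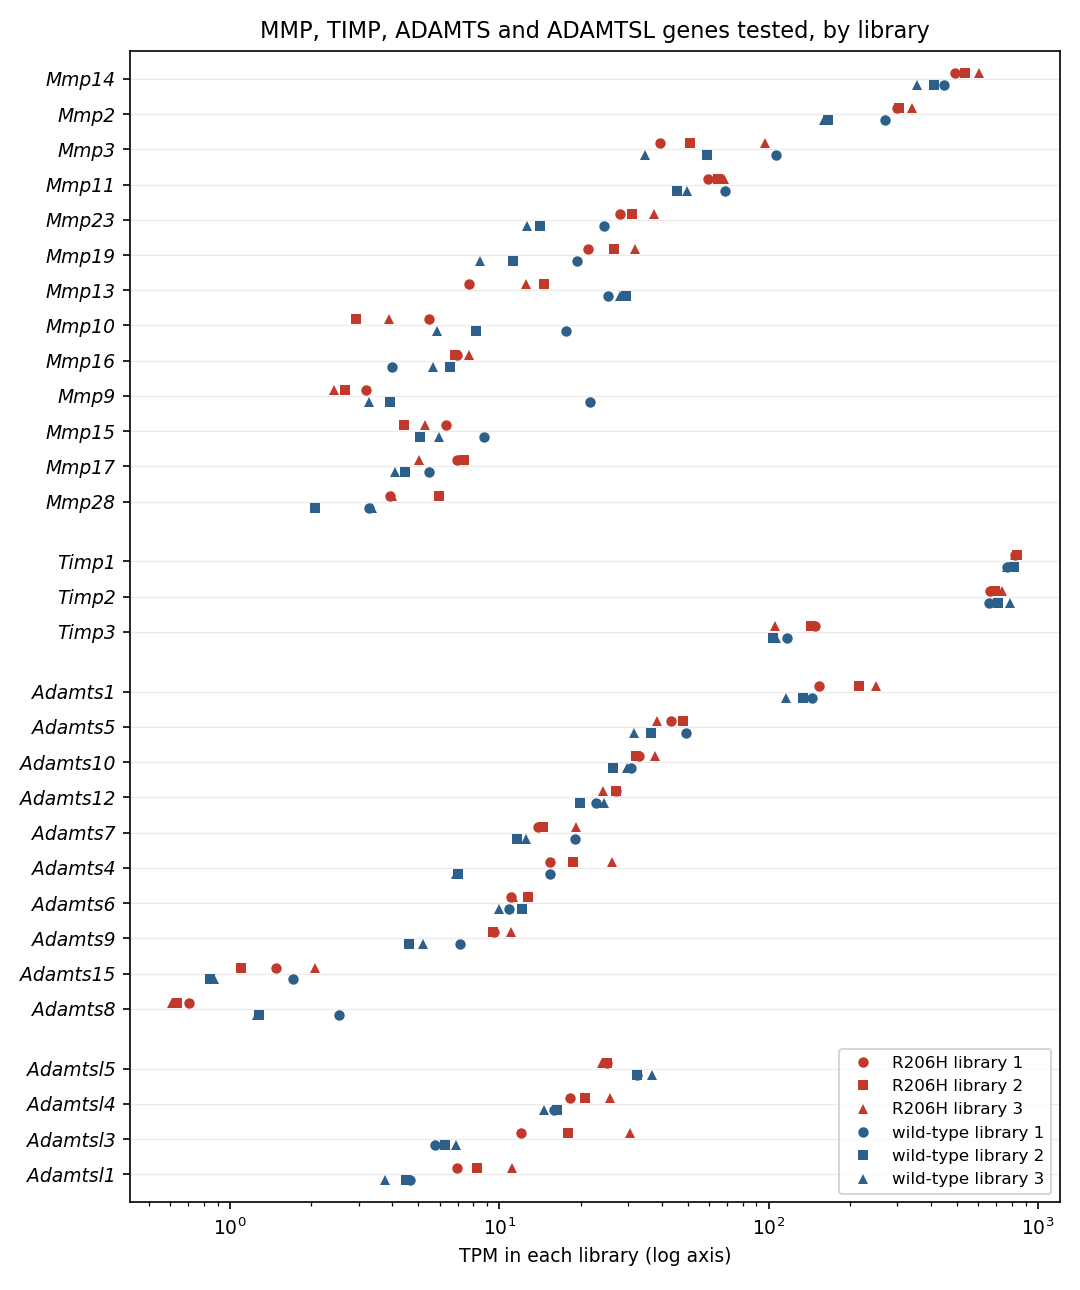
TPM in each library, on a log axis, for the 30 members tested, ordered by level within each family, with R206H libraries above wild-type libraries in each row. Timp1, Timp2 and Mmp14 have the highest levels, Mmp13 and Adamtsl5 lie lower in all R206H libraries, and wild-type library 1 lies near the R206H libraries for Mmp2, Mmp19, Mmp23 and Adamts4.

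The inhibitors Timp1 and Timp2 had the highest levels of all members, and no Timp gene passed the test. Timp1, a broad inhibitor on the X chromosome, stood at 824, 839 and 821 TPM in R206H libraries 1, 2 and 3, against 766, 814 and 769 TPM in wild-type libraries 1, 2 and 3. Those values did not overlap, but the difference was 0.08 with a 95% interval of -0.04 to 0.20 (limma adjusted p = 0.352). Timp2, which also takes part in activating Mmp2, stood at 665, 693 and 734 TPM in R206H libraries 1, 2 and 3, against 659, 710 and 787 TPM in wild-type libraries 1, 2 and 3. The values overlapped, with a difference of -0.04 and a 95% interval of -0.22 to 0.14 (limma adjusted p = 0.78). Timp3, which binds to the matrix and also inhibits ADAMTS proteases, stood at 148, 144 and 105 TPM in R206H libraries 1, 2 and 3, against 117, 103 and 106 TPM in wild-type libraries 1, 2 and 3. R206H library 3 lay within the wild-type range (difference 0.27, 95% interval -0.04 to 0.58, limma adjusted p = 0.25). Timp4 had 0.209 to 0.356 TPM in R206H and 0.191 to 0.627 TPM in wild type, and was not tested.

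Summed over each family, Timp transcripts came to 1636, 1676 and 1660 TPM in R206H libraries 1, 2 and 3, against 1542, 1627 and 1663 TPM in wild-type libraries 1, 2 and 3. Mmp transcripts summed to 980, 1057 and 1221 TPM in R206H and 1025, 767 and 678 TPM in wild type, and Mmp14 with Mmp2 made up 77.3% to 80.6% of them in R206H and 70.0% to 76.0% in wild type. The sum of Mmp over the sum of Timp was 0.599, 0.631 and 0.735 in R206H libraries 1, 2 and 3, against 0.664, 0.471 and 0.408 in wild-type libraries 1, 2 and 3. Wild-type library 1 lay within the R206H range of this ratio and the other wild-type libraries below it. Inhibitor transcripts therefore outnumbered metalloprotease transcripts in all 6 libraries. These sums add levels of RNA and say nothing of active enzyme.

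Among the ADAMTS proteases that cut proteoglycans, Adamts1 was the most abundant (ENSMUSG00000022893, chromosome 16, 85793827 to 85803113, GRCm38, minus strand). It stood at 154, 217 and 250 TPM in R206H libraries 1, 2 and 3, against 145, 134 and 116 TPM in wild-type libraries 1, 2 and 3. The genotypes did not overlap, with R206H library 1 close to the wild-type libraries, and the difference of 0.63 (SE 0.176) did not pass (limma adjusted p = 0.0889) unless R206H library 1 was left out (limma adjusted p = 0.0296). Adamts5, a main aggrecanase of mouse cartilage, lies 53.1 kb from Adamts1 on the same strand and stood at 43.5, 48.1 and 38.6 TPM in R206H libraries 1, 2 and 3, against 49.4, 36.5 and 31.7 TPM in wild-type libraries 1, 2 and 3. Its values overlapped (difference 0.16, 95% interval -0.22 to 0.55, limma adjusted p = 0.572, and 0.134 without wild-type library 1, with a difference of 0.34), so the neighbours Adamts1 and Adamts5 did not show the same separation of the genotypes, although the difference between their differences was not tested.

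Adamts4, another aggrecanase, stood at 15.4, 18.7 and 26.1 TPM in R206H libraries 1, 2 and 3, against 15.4, 7.04 and 6.92 TPM in wild-type libraries 1, 2 and 3. Wild-type library 1 matched R206H library 1, and the other wild-type libraries lay far below (difference 1.02, SE 0.315, limma adjusted p = 0.107, and 0.0462 without wild-type library 1, with the ratio at 2.87 instead of 2.05). The ratio was 1.74 without R206H library 3, and leaving out any library but wild-type library 1 gave no call for Adamts4. Adamts9, a versican-cutting enzyme, had 9.57, 9.43 and 11.1 TPM in R206H libraries 1, 2 and 3, against 7.16, 4.62 and 5.18 TPM in wild-type libraries 1, 2 and 3, without overlap. Its difference was 0.74 (SE 0.161, limma adjusted p = 0.0617, and 0.0431 without wild-type library 1). Leaving out any other library in turn gave no call for Adamts9, and its ratio of 1.77 became 1.68 without R206H library 3.

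Adamts8 was the proteoglycanase with a difference in the other direction, at 0.704, 0.637 and 0.610 TPM in R206H libraries 1, 2 and 3, against 2.53, 1.28 and 1.25 TPM in wild-type libraries 1, 2 and 3. It reached the level for testing only through its wild-type libraries, and the difference of -0.67 (SE 0.25) did not pass (limma adjusted p = 0.152). Without wild-type library 1, its highest value, the ratio was 0.513 instead of 0.385 and the gene no longer reached the level for testing. Adamts15 lies 20.1 kb away on the opposite strand, with 1.09 to 2.07 TPM in R206H libraries and 0.842 to 1.72 TPM in wild-type libraries, which overlap, and its ratio was 1.81 without wild-type library 1 instead of 1.36. Adamts20, a versican-cutting enzyme known for coat colour in mice, had 0.760, 1.07 and 1.06 TPM in R206H and 0.236, 0.674 and 0.536 TPM in wild type, too low to be tested.

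None of the ADAMTS proteases with other substrates passed the test. Adamts10, which is associated with fibrillin microfibrils, stood at 33.0, 32.2 and 37.7 TPM in R206H libraries 1, 2 and 3, against 30.7, 26.4 and 29.7 TPM in wild-type libraries 1, 2 and 3 (difference 0.24, SE 0.0904, limma adjusted p = 0.158). The lowest R206H library was above the highest wild-type library. Adamts12, which can cut cartilage oligomeric matrix protein, stood at 27.2, 27.1 and 24.2 TPM in R206H libraries 1, 2 and 3, against 22.8, 19.9 and 24.5 TPM in wild-type libraries 1, 2 and 3. R206H library 3 lay within the wild-type range (difference 0.22, 95% interval -0.01 to 0.45, limma adjusted p = 0.212). Adamts7, related to Adamts12, and Adamts6, related to Adamts10, had differences of 0.14 and 0.08 with overlapping values (limma adjusted p = 0.693 and 0.685). Adamts13, which cuts von Willebrand factor, was listed at 0 in all libraries. Adamts16, Adamts17, Adamts18 and Adamts19 had at most 1.06 TPM and were not tested.

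The ADAMTS-like genes had 1 member lower and 3 with upward values. Adamtsl5, which binds fibrillin microfibrils (ENSMUSG00000043822, chromosome 10, 80339110 to 80348412, GRCm38, minus strand), stood at 25.1, 25.0 and 24.1 TPM in R206H libraries 1, 2 and 3, against 32.5, 32.5 and 36.8 TPM in wild-type libraries 1, 2 and 3. The R206H libraries lay within 1 TPM of each other and below all wild-type libraries. Its means were 24.7 ± 0.533 TPM in R206H and 34.0 ± 2.49 TPM in wild type, a ratio of 0.728 (log2 difference -0.44, SE 0.0738, limma adjusted p = 0.0476). As for Mmp13, the call held without R206H library 1 (limma adjusted p = 0.0468) and not without any other library in turn, at adjusted p = 0.0507 without wild-type library 1 and 0.1004 to 0.166 without the others.

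Adamtsl3 had the largest upward difference of any member, at 12.01, 18.0 and 30.6 TPM in R206H libraries 1, 2 and 3, against 5.75, 6.28 and 6.89 TPM in wild-type libraries 1, 2 and 3. Wild-type values were tight, and the R206H values spread over a wide range above them, with library 3 highest. The means were 20.2 ± 9.47 TPM in R206H and 6.31 ± 0.571 TPM in wild type, a ratio of 3.20 (log2 difference 1.44, SE 0.294), or 2.38 without R206H library 3, and the difference did not pass (limma adjusted p = 0.0569). Adamtsl1 stood at 6.94, 8.25 and 11.1 TPM in R206H libraries 1, 2 and 3, against 4.67, 4.48 and 3.76 TPM in wild-type libraries 1, 2 and 3. Adamtsl4, known from the fibres that hold the lens, had 18.3, 20.8 and 25.8 TPM in R206H libraries 1, 2 and 3, against 16.0, 16.3 and 14.6 TPM in wild-type libraries 1, 2 and 3. Neither overlapped between genotypes, and neither passed, with differences of 0.86 (SE 0.178) and 0.43 (SE 0.129) at limma adjusted p = 0.0589 and 0.0985. For these 3 genes wild-type library 1 lay with the other wild-type libraries and not with R206H, unlike for Mmp2 and Mmp19. Adamtsl2 stayed at or under 0.727 TPM and was not tested.

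Of the 12 members higher at an unadjusted p under 0.05, R206H library 3 was the highest of the 6 libraries for 11 and wild-type library 1 the highest wild-type library for 9. The plot of the 12 relative to wild-type libraries 2 and 3 shows where wild-type library 1 falls. Without that library limma called 5 members, all higher, Mmp2, Mmp19, Mmp23, Adamts4 and Adamts9, at a background of 2.02% of 14464 genes, and 18 of 29 members tested were at an unadjusted p under 0.05 where 27.0% of genes were. Of the 6 fits with a library left out, each of these 5 was called in that 1 alone. Their highest limma adjusted p over the 17 alternatives ran from 0.191 (Adamts9) to 0.279 (Adamts4). A test on reads rebuilt from TPM, limma voom, called 11 of the 30 members where 8.73% of all genes passed, 4.61% higher and 4.12% lower. With a weight for each library limma called 13, against 12.9% of all genes, which added Adamtsl4 and Timp3 to those 11. The 11 were the 2 genes called above, both lower, and 9 higher ones: Mmp2, Mmp14, Mmp19, Mmp23, Adamts1, Adamts4, Adamts9, Adamtsl1 and Adamtsl3. Calls of the upward members therefore depended on the test used and on the libraries entered.

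**Figure D4:**
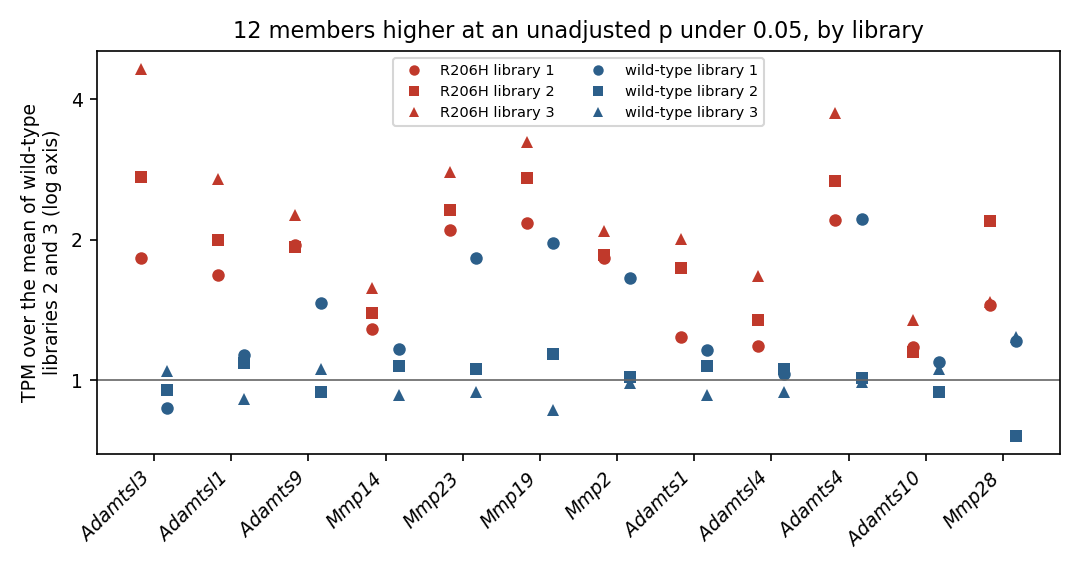
TPM in each library divided by the mean of wild-type libraries 2 and 3, on a log axis, for the 12 members higher at an unadjusted p under 0.05, with R206H libraries left of wild-type libraries. Wild-type library 1 lies well above the other wild-type libraries for Mmp19, Mmp23, Mmp2 and Adamts4, and close to them for the ADAMTS-like genes.

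The genes that act on these enzymes gave values in both directions. In the list of the plasminogen system and convertases, 12 of 15 genes were tested, 1 rose, none fell, and 3 were higher and 4 lower at an unadjusted p under 0.05, with a median difference of 0.12 beside 0.02 over all genes. The shares given above for all genes, 1.26% and 0.79% past the threshold and 14.4% and 11.7% at that p, are the background for this and the following lists. Serpine2, an inhibitor of thrombin and plasminogen activators, rose, at 83.6, 107 and 103 TPM in R206H libraries 1, 2 and 3 against 63.9, 55.6 and 56.9 TPM in wild-type libraries 1, 2 and 3 (difference 0.72, SE 0.105, limma adjusted p = 0.0454). All R206H libraries lay above all wild-type libraries. Plau, the urokinase that makes plasmin, an activator of metalloprotease precursors, had 213, 188 and 125 TPM in R206H and 274, 286 and 292 TPM in wild type. Its receptor gene Plaur had 142, 101 and 83.1 TPM in R206H and 195, 200 and 234 TPM in wild type. Neither passed, with differences of -0.73 and -0.97 at limma adjusted p = 0.0736 and 0.0508, although the genotypes did not overlap and limma voom called both. Pcsk6, a convertase related to furin, had a difference of 0.76 (limma adjusted p = 0.0593), while Furin itself stood at 98.7 to 106 TPM in R206H and 102 to 108 TPM in wild type. Plasminogen (Plg) was listed at 0 in all libraries.

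**Figure D5:**
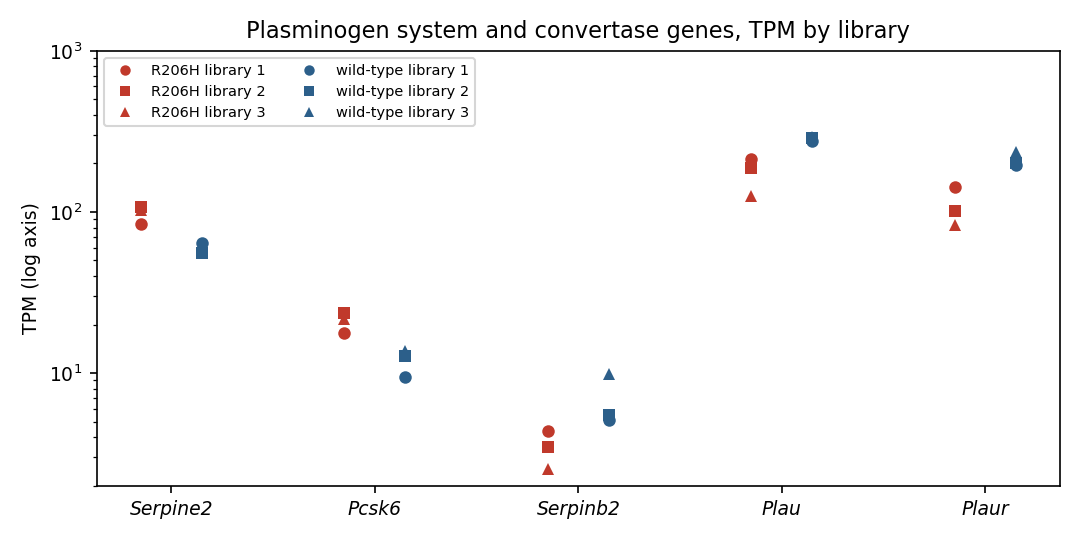
TPM in each library, on a log axis, for 5 genes of the plasminogen and convertase list, the 1 past the adjusted threshold and the 4 next by unadjusted p, with R206H libraries left of wild-type libraries. Serpine2 and Pcsk6 lie higher in R206H, and Serpinb2, Plau and Plaur lie lower, of which Serpine2 alone passed the adjusted threshold.

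Of 10 further inhibitors and clearance genes, 5 were tested, 1 fell and none rose, with 1 higher and 1 lower at an unadjusted p under 0.05 and a median of 0.22. Tfpi2, a serine protease inhibitor of the matrix, fell, at 9.10, 8.29 and 4.93 TPM in R206H libraries 1, 2 and 3 against 19.5, 19.9 and 18.9 TPM in wild-type libraries 1, 2 and 3 (difference -1.31, SE 0.196, limma adjusted p = 0.0454). Reck, a membrane-anchored inhibitor of metalloproteases, had 19.4, 22.3 and 27.7 TPM in R206H and 16.6, 12.6 and 15.7 TPM in wild type, a difference of 0.59 that did not pass (limma adjusted p = 0.0784). The differences of Spock2 and of the clearance receptor gene Lrp1, 0.41 and 0.22, did not pass either (limma adjusted p = 0.223 and 0.284). Both Serpine2 and Tfpi2 lost their call without R206H library 2, R206H library 3, wild-type library 2 or wild-type library 3, and Tfpi2 also without wild-type library 1.

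None of 7 tested genes for substrates and partners of ADAMTS proteins passed, and 4 were higher at an unadjusted p under 0.05, where 14.4% of all genes were, with a median of 0.34. limma voom called 3 higher, against 4.61% of all genes. Fbn1, the main fibrillin, had 267, 312 and 351 TPM in R206H libraries 1, 2 and 3, against 223, 177 and 152 TPM in wild-type libraries 1, 2 and 3 (difference 0.76, limma adjusted p = 0.0569). The proteoglycan gene Vcan, which encodes versican, had 93.9, 104 and 107 TPM in R206H and 85.8, 61.1 and 59.5 TPM in wild type (difference 0.57, limma adjusted p = 0.0727). Fn1, for fibronectin, and Fbn2 had differences of 0.34 and 1.05 (limma adjusted p = 0.0867 and 0.104). None of these 4 overlapped between genotypes, and wild-type library 1 was the highest wild-type library for each. Acan, for aggrecan, had 5.37 to 10.7 TPM in R206H and 5.51 to 14.6 TPM in wild type.

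A list of transcription factors known for Mmp promoters held AP-1, Ets and Runx factors, with subunits of the further factor NF-kB. It had no call among 16 tested with limma, where 2.04% of all genes passed. At an unadjusted p under 0.05, 6 were higher and 3 lower, against 14.4% and 11.7% of all genes, and the median was 0.08. limma voom called 1 higher and 2 lower, against 4.61% and 4.12% of all genes. Fosl1, an AP-1 subunit, had 110, 93.8 and 79.0 TPM in R206H libraries 1, 2 and 3, against 137, 143 and 164 TPM in wild-type libraries 1, 2 and 3 (difference -0.65, limma adjusted p = 0.0511). Fos, a further subunit, had 68.6, 68.0 and 99.2 TPM in R206H and 50.7, 40.1 and 36.4 TPM in wild type (difference 0.87, limma adjusted p = 0.0569). AP-1 subunits thus had values on both sides, and neither of the pair overlapped between genotypes. Ets1 had a difference of -0.63 and Runx2, a factor of bone-forming cells, one of 0.41 (limma adjusted p = 0.0511 and 0.0887).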

How the data were processed

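Per the labels' protocols, RNA was depleted of ribosomal RNA and read as 150 bp pairs. The authors deposited TPM per Ensembl gene for 6 libraries, each summing to 1000000. The submitters' processing notes name STAR, Trimmomatic, Subread, featureCounts and DESeq2, and GRCm38 and mm10 as builds, without roles or versions. The sources used here state no gene lengths, annotation release or strand setting. TPM is a share, so abundant transcripts lower all others, and reads in exons of overlapping genes may be lost or misassigned.

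Lengths and coordinates came from GENCODE M21 (GRCm38), which matched 49056 of 49315 genes. Depth was estimated from TPM times length, which gave whole reads within 0.05 for 91.2% to 91.5% of values under 100 reads. Tests used limma 3.58.1 in R 4.3.3, lmFit and eBayes with a trend, two-sided, with no covariate, and were tested on simulated data. No pair of libraries held the same non-zero value for more than 1 gene. Promoters came from RefSeq (GRCm38.p6), with 33 of 48 members matched. Protein motifs were not searched, and the Runx motif was added after the data were seen. Python 3.11.15 was used for joining and plotting. The members, gene lists and alternatives were chosen with earlier results of these data known. The rule named every member, in full at an unadjusted p under 0.05 or a mean of at least 20 TPM, and from each list the genes past the threshold, then up to 4 by smallest p. Furin, Plg, Acan and the single marker genes were named after their values were seen. Alternatives were other pseudocounts, filters and scalings, limma without trend, with library weights or a replicate block, voom and leaving out each library.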

Additional observations from a re-analysis of the deposited data

How the results depend on the processing

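Over all genes, 303 passed with limma, and over the members 2. With a pseudocount of 0.1 the counts were 129 and 0, with no filter 2 and 0, with a filter at TPM 5 they were 587 and 5, without the trend 27 and 0, with library weights 1906 and 13, and with voom 1290 and 11. Quantile normalization gave 200 over all genes. Where a library was left out, all genes ranged from 0 to 729 and the members from 0 to 5. The lowest counts came without R206H library 2, R206H library 3, wild-type library 2 or wild-type library 3, at 0, 0, 4 and 1 genes and 0 members each. The cause of these shifts was not tested, although fits with a library left out rest on fewer libraries and those with other filters test fewer or more genes. With the replicate block 0 genes and 0 members passed, while 3301 genes and 16 members were at an unadjusted p under 0.05. The numbers are not stated to pair the libraries, and same-numbered libraries correlated at 0.02, 0.06 and -0.03 in their deviations from the genotype means. Members at an unadjusted p under 0.05 numbered 13 to 21 and the members' median ran from 0.16 to 0.35 under all alternatives. The direction of Mmp13 and Adamtsl5 held under all 17, with differences of -1.40 to -0.97 and -0.49 to -0.38, and each passed under 8. Mmp3 turned to 0.039 with library weights, and with a library left out it ran from -0.44 to 0.35 and Timp2 from -0.10 to 0.027, none past the threshold. Members under TPM 1 rested on few reads.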

Other observations

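Of 21 ADAM proteases, cathepsins and surface peptidases listed, 19 were tested and none passed with limma, where 2.04% of all genes passed. At an unadjusted p under 0.05, 2 were higher and 1 lower, against 14.4% and 11.7% of all genes, with a median difference of 0.07. limma voom called 1 lower, against 4.12% of all genes. That gene was Ctsl, a lysosomal cysteine protease, at 568, 571 and 499 TPM in R206H libraries 1, 2 and 3 against 747, 640 and 724 TPM in wild-type libraries 1, 2 and 3 (difference -0.36, limma adjusted p = 0.0646). Ctsb, its relative, had 466, 456 and 514 TPM in R206H and 433, 431 and 368 TPM in wild type (difference 0.22, limma adjusted p = 0.149). Adam33 and Adam12, membrane-bound proteases of mesenchymal cells, had differences of 0.72 and 0.30 (limma adjusted p = 0.115 and 0.238). Ctsk, the collagen-degrading cathepsin of osteoclasts, had 54.4 to 72.1 TPM in R206H libraries and 63.4 to 70.0 TPM in wild-type libraries, a range that overlapped, and was named after its values were seen.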
